A study of Homo sapiens with 6 samples.

Results

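Autophagy is the route by which a cell encloses part of its cytoplasm in a double membrane, the autophagosome, and delivers it to the lysosome. The RNAs described here are those of 10 autophagy genes, GABARAPL1, MAP1LC3B, GABARAPL2, GABARAP, ULK1, BECN1, WIPI1, WIPI2, ATG5 and SQSTM1. They were chosen by name, with earlier results of these data known. They are the genes of 25 probe sets whose platform annotation gives 1 of these symbols and no other. In all, 54613 probe sets were tested, of which 41091 carry a single symbol and give 19775 named genes. Total RNA came from KOPTK1 cells, a long-established human line of T-ALL (T-cell acute lymphoblastic leukaemia), cultured for 48 h with 1 µM PD0332991 (3 arrays) or with vehicle alone (3 arrays). PD0332991 is palbociclib, which blocks the cyclin D-dependent kinases CDK4 and CDK6. Both groups are the same line, a single line stands for the disease, and the submitters call the replicates biological triplicates. The design implies 1 comparison, PD0332991 against vehicle.

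Autophagosome formation is started by the ULK1 kinase complex and by a lipid kinase complex built on Beclin 1, which makes phosphatidylinositol 3-phosphate (PI3P) on the forming membrane. WIPI proteins read PI3P, and a conjugation system that includes ATG5 then attaches ubiquitin-like proteins of the ATG8 family, the LC3 and GABARAP proteins, to the membrane. There the ATG8 proteins help the membrane grow and hold cargo receptors such as p62, which SQSTM1 encodes. The pathway recycles nutrients and clears damaged organelles, and it is active in developing and resting T cells. Its flux is set largely by the proteins and their lipidation, which RNA arrays do not measure.

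The deposited intensities were on a common scale, with array medians of 50.75 to 51.8 with PD0332991 and 49.12 to 54.31 with vehicle. Across genes, which are not independent replicates, Pearson r was 0.993 to 0.996 between arrays of 1 group and 0.976 to 0.979 between a PD0332991 and a vehicle array. All 13 measured T-ALL and thymocyte markers lay above the median gene, and their summed intensity was 39520 to 40660 with PD0332991 and 31460 to 33920 with vehicle. Above it also lay 1 of 6 B cell markers (CD79A), 1 of 6 myeloid markers (MPO), 1 of 3 erythroid markers (HBB), 0 of 6 epithelial and 0 of 6 fibroblast markers, where the named genes were chosen after their values were seen. CD79A, which T-ALL cells can express, averaged 543 ± 85.7 with PD0332991 and 275 ± 27.7 with vehicle (SD, n = 3 each), and the summed B cell list was 607 to 781 with PD0332991 and 400 to 488 with vehicle. The part of these markers in the results below was not tested. An array of bulk RNA cannot tell a change in every cell from a change in the share of cells that express a gene, and values on a common scale cannot show whether total RNA per cell changed.

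The sequences shown are the 250 bases before the transcription start of the 4 ATG8 genes. Of these, GABARAPL1 and MAP1LC3B rose, and GABARAPL2 and GABARAP did not pass the test. They are from NCBI RefSeq on GRCh38.p14, read 5′ to 3′ on the gene's strand. Capitals mark TGACGTCA, the cAMP response element, in GABARAPL1 and TGACNNNGC, the antioxidant response element, in MAP1LC3B.
GABARAPL1, chr12:10212627-10212876, + strand: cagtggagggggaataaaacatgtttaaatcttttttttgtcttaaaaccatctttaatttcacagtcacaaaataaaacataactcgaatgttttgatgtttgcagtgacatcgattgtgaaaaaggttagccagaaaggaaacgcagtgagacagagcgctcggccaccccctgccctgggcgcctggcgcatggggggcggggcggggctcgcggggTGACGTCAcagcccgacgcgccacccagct
MAP1LC3B, chr16:87392086-87392335, + strand: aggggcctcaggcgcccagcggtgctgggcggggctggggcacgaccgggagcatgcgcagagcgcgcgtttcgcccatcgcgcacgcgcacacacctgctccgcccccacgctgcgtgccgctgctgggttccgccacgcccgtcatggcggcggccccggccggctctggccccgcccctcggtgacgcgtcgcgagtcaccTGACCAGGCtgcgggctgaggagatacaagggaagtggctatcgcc
GABARAPL2, chr16:75566129-75566378, + strand: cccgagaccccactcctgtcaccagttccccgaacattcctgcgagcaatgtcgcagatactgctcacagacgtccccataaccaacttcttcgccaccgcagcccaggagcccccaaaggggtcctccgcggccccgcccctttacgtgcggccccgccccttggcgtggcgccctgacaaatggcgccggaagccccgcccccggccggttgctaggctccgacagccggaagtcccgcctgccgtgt
GABARAP, chr17:7242450-7242699, - strand: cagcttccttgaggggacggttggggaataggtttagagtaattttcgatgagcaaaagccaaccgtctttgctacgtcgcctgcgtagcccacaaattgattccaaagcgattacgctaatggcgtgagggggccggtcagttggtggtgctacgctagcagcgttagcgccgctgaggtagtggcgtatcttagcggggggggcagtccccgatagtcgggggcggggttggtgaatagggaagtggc

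All 10 genes had a promoter in RefSeq, 14 in all because WIPI2 and ATG5 have 2 each and SQSTM1 has 3. Each was searched on both strands from 250 bases before to 50 bases after the start. The E-box CACGTG, the core of the element that TFEB and TFE3 bind in lysosome and autophagy genes, was in 0 of the 14 and in 7.26% of all 35116 promoters. The FOXO motif GTAAACA was likewise in 0 of the 14, and in 3.42% of all promoters. The E2F motif TTTNNCGC was in 1 of the 14, a SQSTM1 promoter, and in 6.89% of all. TGACNNNGC was in 1, that of MAP1LC3B, where it began 46 bases before the start, and in 13.3% of all. TGACGTCA, which was looked for after the GABARAPL1 sequence was seen, was in that promoter alone of the 14, beginning 30 bases before the start, and in 1.85% of all. No 2 of these matches overlapped. The matches describe letters in these windows, and whether they bear on the changes in RNA was not tested.

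After 48 h of PD0332991, GABARAPL1, MAP1LC3B, ULK1, BECN1 and WIPI1 rose and none of the 10 genes fell. The 5 increases lay between 1.40-fold for ULK1 and 1.85-fold for GABARAPL1. GABARAP, ATG5 and SQSTM1 had log2 fold changes within 0.01 of zero, and GABARAPL2 at 0.14 and WIPI2 at 0.23 did not pass. With the brightest probe set of each gene and limma across all genes (Benjamini-Hochberg adjusted p under 0.05), 5 of 10 were called higher and 0 lower, and 6 and 0 at an unadjusted p under 0.05. Of all 19775 genes, 15.6% were called higher and 13.6% lower, and 20.8% and 18.1% were so at an unadjusted p under 0.05. The median log2 fold change of the 10 genes was 0.36, against 0.01 for all genes. Fold changes are on the scale of log2(intensity + 16). Each of the 10 genes was brighter than the median gene, from percentile 59.4 (GABARAPL1) to 90.5 (BECN1) of mean log2 value. All genes include dim ones, whose change this scale understates, so these comparisons are not between genes of like brightness. The 10 genes were also chosen with earlier results of these data known, so the counts do not test them as a set.

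**Figure D1:**
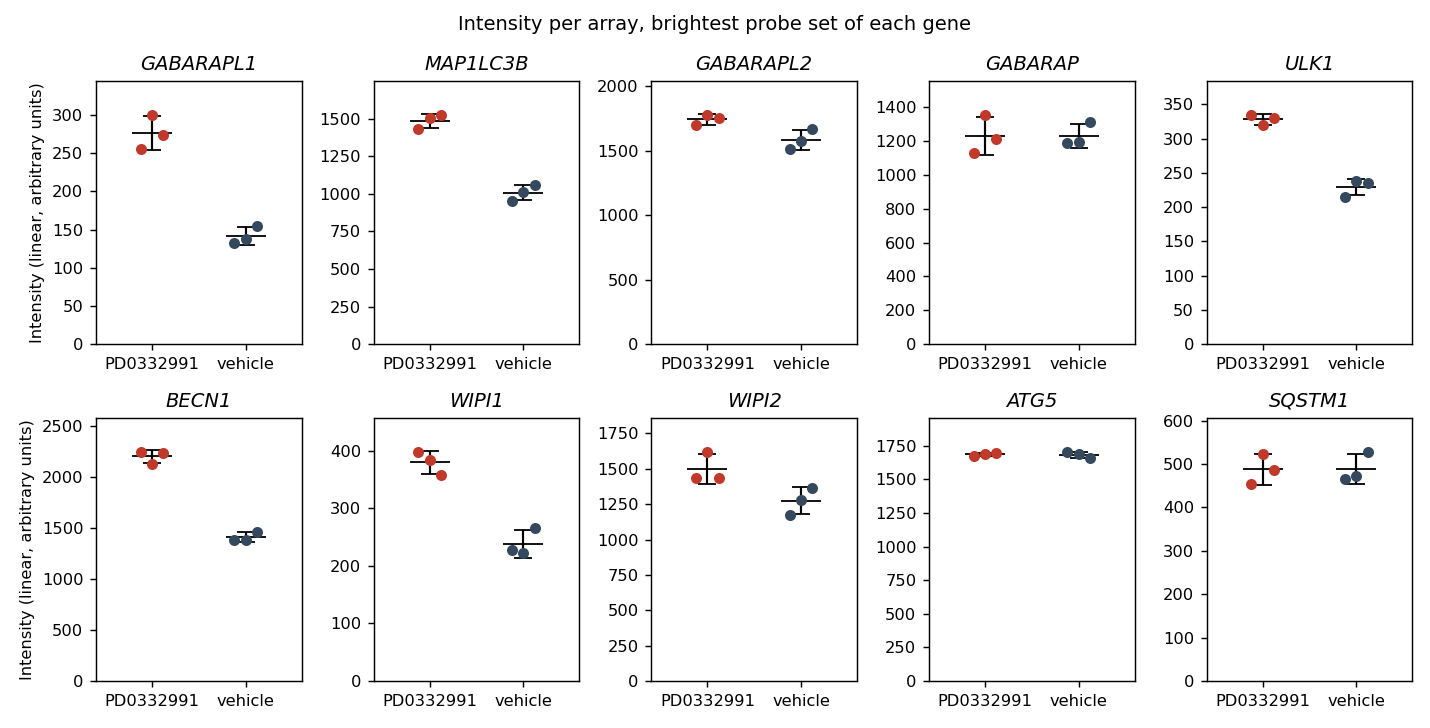
Intensity of the brightest probe set of each of the 10 genes on every array (linear scale in arbitrary units, from 0), with PD0332991 on the left and vehicle on the right of each panel; points are arrays, bars the mean and SD (n = 3 each). The PD0332991 arrays lie above all vehicle arrays for GABARAPL1, MAP1LC3B, GABARAPL2, ULK1, BECN1, WIPI1 and WIPI2, and the groups overlap for GABARAP, ATG5 and SQSTM1. GABARAPL2 and WIPI2 did not pass the test despite this separation, and the share of all genes without overlap was not counted.

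GABARAPL1, an ATG8 protein gene that responds to nutrient state in many cell types, had the largest increase of the 10. Its brightest probe set read 255.6, 299.3 and 273.9 with PD0332991, against 132.7, 137.6 and 154.8 with vehicle. The groups did not overlap, and the lowest PD0332991 array stood well above the highest vehicle array. The log2 fold change was 0.89 (SE 0.09, limma adjusted p = 7.0e-04). Its dimmer probe set, 208868_s_at, read 100.6, 121.3 and 123.0 with PD0332991 and 67.0, 93.5 and 71.3 with vehicle, which also did not overlap but lay closer together. In the fit of all probe sets it was higher by 0.50 (adjusted p = 0.043), and lost that call without PD0332991 replicate 1, 2 or 3 or vehicle replicate 1 or 3 (adjusted p 0.0537 to 0.131), with quantile normalization, median centring, a pseudocount of 1 or array weights. A probe set that the annotation gives to both GABARAPL1 and the near-identical GABARAPL3 was not used here, and cross-hybridisation between these copies was not tested.

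MAP1LC3B encodes LC3B, the ATG8 protein most used as a marker of autophagosomes. It read 1432, 1505 and 1521 with PD0332991, against 954, 1014 and 1057 with vehicle. No arrays overlapped, and its mean of 1486 ± 47.3 with PD0332991 compared with 1008 ± 51.7 with vehicle (SD, n = 3 each). The log2 fold change was 0.55 (SE 0.06, limma adjusted p = 0.0014). The dimmer probe set, 208785_s_at, was higher by 0.45 (adjusted p = 0.021) and was not called without PD0332991 replicate 2 or 3 or vehicle replicate 1 or 2 (adjusted p 0.0654 to 0.0716). The near-identical copy MAP1LC3B2 stayed dim on its own probe set, at 25.9 ± 4.90 with PD0332991 and 23.7 ± 2.56 with vehicle (SD, n = 3 each). Both MAP1LC3B probe sets have names ending in _s_at, and cross-hybridisation between these copies was not tested.

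The other 2 ATG8 genes among the 10 were bright on every array and did not pass. GABARAPL2, also called GATE-16, a GABARAP-type protein gene, read 1699, 1776 and 1757 with PD0332991, against 1514, 1579 and 1669 with vehicle. The groups did not overlap, but the gap between them was small beside the spread of the vehicle arrays (log2 fold change 0.14, SE 0.06, limma adjusted p = 0.159, 95% interval −0.01 to 0.28). GABARAP, which gives its name to that branch of the family, read 1128, 1352 and 1212 with PD0332991 and 1188, 1194 and 1312 with vehicle. Its groups overlapped, at a log2 fold change of −0.0033 (SE 0.09, 95% interval −0.21 to 0.21).

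To set the ATG8 genes against each other, 1 member's log2 value was subtracted from another's on each array, and the group means of this difference were compared for 7 pairs with two-sided exact permutation tests, where 0.1 is the smallest p that 3 against 3 arrays allow. The log2 fold change of GABARAPL1 exceeded that of GABARAP by 0.89, of GABARAPL2 by 0.75 and of MAP1LC3B by 0.34, each with an exact p = 0.1 (0.117 adjusted over the 7 pairs) and no overlap between groups. The difference GABARAPL1 minus GABARAP was −2.09 ± 0.02 with PD0332991 and −2.99 ± 0.03 with vehicle (SD, n = 3 each), so the arrays within a group barely differed in it. The shift was −0.56 for GABARAP minus MAP1LC3B and −0.42 for GABARAPL2 minus MAP1LC3B, also without overlap and at the same exact p. No pair passed 0.05, which this number of arrays cannot reach. For GABARAPL2 minus GABARAP it was 0.14, with overlapping groups (exact p = 0.2). The gap between GABARAPL1 and MAP1LC3B was 0.19 with a pseudocount of 64, and also 0.19 when each gene's probe sets were averaged. The levels themselves are not compared between genes, since probe sets differ in brightness for the same amount of RNA.

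ULK1 encodes the kinase that starts autophagy when mTORC1 is low or AMPK is active. Its single probe set read 334, 319 and 330 with PD0332991, against 216, 238 and 235 with vehicle. All 3 PD0332991 arrays lay close together and above the vehicle arrays, and the log2 fold change was 0.49 (SE 0.06, limma adjusted p = 0.0020). BECN1 encodes Beclin 1, the scaffold of the PI3-kinase complexes. It read 2248, 2127 and 2240 with PD0332991, against 1386, 1384 and 1467 with vehicle. The separation was wide against the spread in either group, with a log2 fold change of 0.64 (SE 0.06, adjusted p = 5.4e-04) and the lowest p of the 10 genes. Its second probe set, 208945_s_at, gave 0.68 (adjusted p = 7.0e-04 over all probe sets), with 1650 ± 33.2 with PD0332991 and 1026 ± 8.15 with vehicle (SD, n = 3 each). The third, 1561652_at, was dim at 13.3 ± 7.10 with PD0332991 and 11.8 ± 6.49 with vehicle, below the pseudocount, and was not called. It is the only BECN1 probe set left when those ending in _x_at or _s_at are dropped, and BECN1 then stood at 0.076 (adjusted p = 0.861).

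Of the PI3P readers, WIPI1 rose and WIPI2 did not pass on its brightest probe set. WIPI1 read 398, 385 and 359 with PD0332991, against 228, 222 and 266 with vehicle. The groups were far apart (log2 fold change 0.64, SE 0.09, limma adjusted p = 0.0026), and its other probe set, 203827_at, gave 0.67 (adjusted p = 0.0023 over all probe sets). WIPI2, which recruits the conjugation machinery to the membrane, read 1435, 1619 and 1435 with PD0332991 and 1174, 1282 and 1367 with vehicle. Its groups did not overlap, but the log2 fold change of 0.23 (SE 0.08) missed the threshold with an adjusted p of 0.0966. It passed among brighter genes only (adjusted p = 0.0261), with a trend in eBayes (0.0312) and with quantile normalization at 0.27 (0.0477). The difference WIPI1 minus WIPI2 was larger by 0.41 with PD0332991 than with vehicle, without overlap (exact p = 0.1, 0.117 adjusted). That shift was 0.077 once probe sets with names ending in _x_at or _s_at were dropped, because the WIPI2 probe set then used, 226986_at, was itself higher by 0.59 (adjusted p = 0.0082 in that fit). The 226986_at readings were 221, 236 and 218 with PD0332991, against 144, 124 and 165 with vehicle. The other 3 WIPI2 probe sets had log2 fold changes of 0.14, −0.08 and −0.15 and were not called, so the 5 probe sets of this gene disagree.

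ATG5, which joins ATG12 to form the ligase that lipidates ATG8 proteins, read 1676, 1685 and 1697 with PD0332991, against 1703, 1687 and 1658 with vehicle. The arrays were nearly level in both groups, and the log2 fold change of 0.0031 (SE 0.05) had a 95% interval of −0.12 to 0.12. The second probe set gave −0.03. The third, 202512_s_at, was lower by 0.33 on the log2 scale, at 410 ± 27.0 with PD0332991 and 518 ± 14.4 with vehicle (SD, n = 3 each; adjusted p = 0.024 over all probe sets). It was not called without PD0332991 replicate 2 or 3 or vehicle replicate 1, 2 or 3 (adjusted p 0.051 to 0.0862) or with the replicate number as a block.

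SQSTM1 encodes p62, which binds ubiquitinated cargo and is itself degraded by autophagy. It read 453, 524 and 486 with PD0332991, against 467, 472 and 528 with vehicle. These overlapped, with a log2 fold change of −0.0031 (SE 0.08) and a 95% interval of −0.20 to 0.19. Of its 4 dimmer probe sets, 239004_at was called lower, at 71.5 ± 1.34 with PD0332991 and 91.6 ± 4.67 with vehicle (SD, n = 3 each; log2 fold change −0.30, adjusted p = 0.022 over all probe sets). That call was lost without PD0332991 replicate 2 or 3 or vehicle replicate 1 or 2 (adjusted p 0.0619 to 0.0822), with a trend in eBayes and with the replicate number as a block. The other 3 ranged from −0.23 to 0.25 and were not called.

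**Figure D2:**
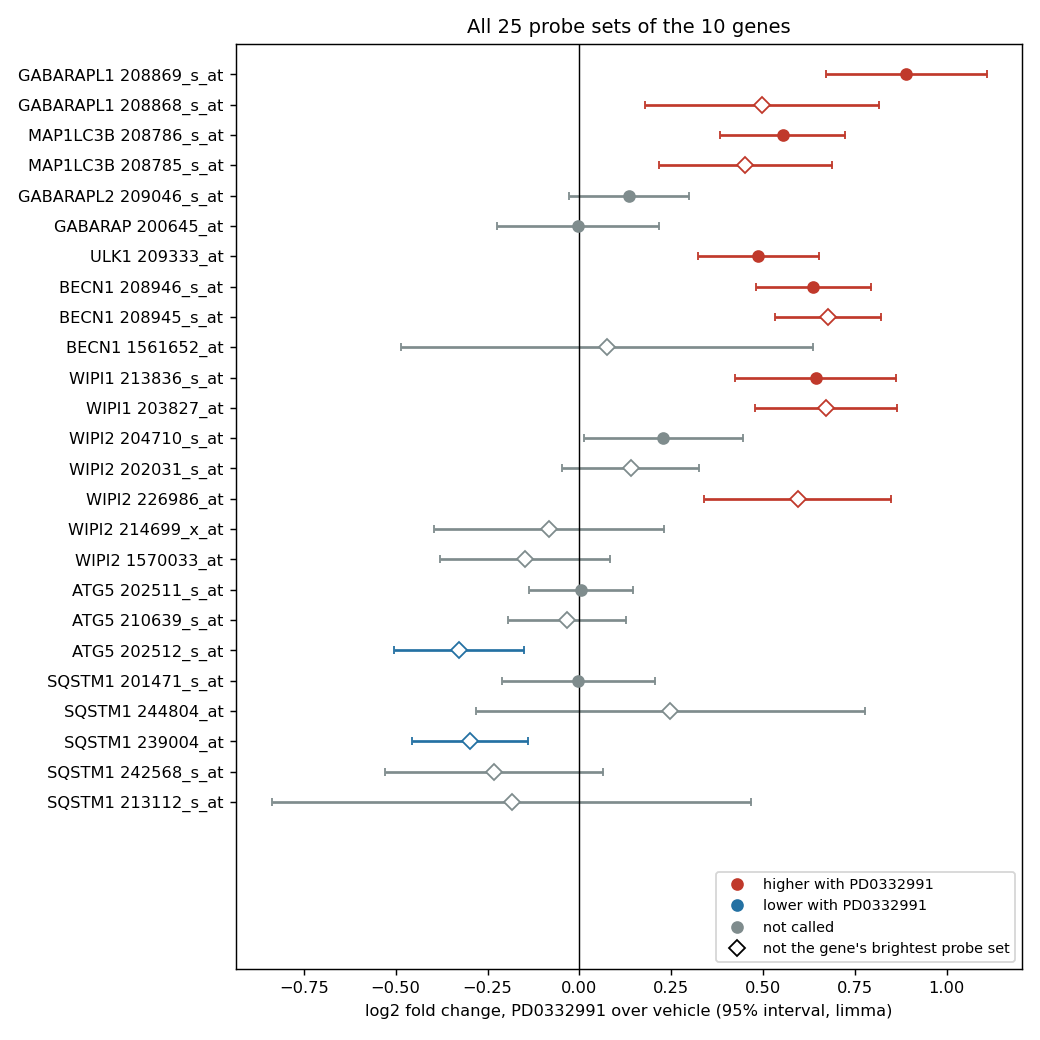
Log2 fold change of PD0332991 over vehicle for all 25 probe sets of the 10 genes, with 95% intervals from limma (n = 3 arrays per group); filled circles are each gene's brightest probe set and open diamonds the others, coloured by call. All probe sets of GABARAPL1, MAP1LC3B, ULK1 and WIPI1 lie right of zero with their intervals, as do 2 of the 3 of BECN1.

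Over all 25 probe sets, 10 were called higher and 2 lower, where 10.7% of all 54613 probe sets were called higher and 10.2% lower. The 10 were both probe sets of GABARAPL1, of MAP1LC3B and of WIPI1, 2 of BECN1, that of ULK1 and 1 of WIPI2. No gene had probe sets called in both directions. The 2 lower calls were 1 of ATG5, whose 2 brighter probe sets were at 0.0031 and −0.03, and 1 of SQSTM1, whose 2 brighter probe sets were at −0.0031 and 0.25, none of them called. Without PD0332991 replicate 2 or 3 or vehicle replicate 1 or 2 the lower calls numbered 0, and without vehicle replicate 3 there was 1.

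Over the 6 arrays, 1544 of 9886 genes brighter than the median gene correlated with GABARAPL1 at Pearson r above 0.95, and 1454 with WIPI1. These points share a division into 2 treatment groups, so a high r mainly restates a difference between the groups. The 3 genes closest to GABARAPL1 were CA6 (r 0.9996), OOEP (0.9994) and TSPAN3 (0.9994), with log2 fold changes of 0.82, 1.09 and 0.41. Closest to WIPI1 were PAIP2 (0.999), DEDD2 (0.9987) and MAVS (0.9983). SQSTM1, whose groups overlapped on its brightest probe set, had 18 genes above 0.95, led by UQCR10 (0.9968), ECH1 (0.9896) and P4HB (0.9824). Over 6 arrays, unrelated genes can reach such an r among 9886, and whether these 18 exceed that was not tested.

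The rest of the pathway was described with 58 other genes in 8 lists by step, written with earlier results of these data known. Of these 58, 23 were called higher and 7 lower, 39.7% and 12.1%, beside 15.6% and 13.6% of all genes, with a median log2 fold change of 0.14. The members are included in the counts by step that follow, and with them the 68 genes had 28 higher and 7 lower. The higher calls among the 68 numbered between 21 and 26 with 1 array left out. Of the 68 genes, 60 were brighter than the median gene. The comparisons with all genes, here and by step, are therefore also not between genes of like brightness.

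In the ULK1 complex, 2 of 5 genes rose and none fell in limma, 40% and 0%, beside 15.6% and 13.6% of all genes. At an unadjusted p under 0.05, 3 were higher and 0 lower, beside 20.8% and 18.1% of all genes. ATG13, the regulatory partner of ULK1, was 367 ± 4.02 with PD0332991 and 263 ± 15.3 with vehicle (SD, n = 3 each), higher by 0.46 on the log2 scale (adjusted p = 0.0025). Of 8 genes of the PI3-kinase complexes, 4 rose and none fell, with 6 and 0 at an unadjusted p under 0.05, where all genes had 20.8% and 18.1%. ATG14, which directs Beclin 1 to the site of autophagosome formation, read 782, 670 and 703 with PD0332991, against 394, 387 and 382 with vehicle. It was higher on every array by a wide margin, and the log2 fold change was 0.86 (SE 0.07, limma adjusted p = 4.1e-04). NRBF2, a further subunit, rose by 0.29 (adjusted p = 0.0332), and PIK3C3, the catalytic subunit VPS34, by 0.23 (adjusted p = 0.0248). NRBF2 was not called without PD0332991 replicate 1 or 2 or vehicle replicate 1, 2 or 3 (adjusted p 0.0541 to 0.110), nor PIK3C3 without PD0332991 replicate 1 or 3 or vehicle replicate 1, 2 or 3 (0.0507 to 0.0803). Both lost the call with the replicate number as a block, and PIK3C3 also with median centring.

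At phagophore expansion, 6 of 10 genes rose and 1 fell, 60% and 10%, beside 15.6% and 13.6% of all genes. WDR45, the WIPI4 gene, whose protein works with ATG2, read 334, 357 and 356 with PD0332991, against 174, 161 and 224 with vehicle, without overlap. Its log2 fold change was 0.86 (SE 0.12, limma adjusted p = 0.0031). ZFYVE1, which encodes the PI3P-binding protein DFCP1, rose by 0.70 (adjusted p = 3.7e-04), and ATG2A, a lipid transfer protein gene, by 0.61 (adjusted p = 0.0015). TMEM41B, a lipid scramblase gene of the endoplasmic reticulum, went the other way, at 1060 ± 19.2 with PD0332991 and 1446 ± 99.8 with vehicle (SD, n = 3 each; log2 fold change −0.44, adjusted p = 0.0044).

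Of 7 genes of the conjugation machinery, 0 rose and 1 fell in limma, and the 14.3% that fell is near the 13.6% of all genes. At an unadjusted p under 0.05, 0 were higher and 2 lower, beside 20.8% and 18.1% of all genes. ATG10, the enzyme that transfers ATG12 to ATG5, read 282, 279 and 298 with PD0332991, against 416, 428 and 457 with vehicle. It was lower on every PD0332991 array, with a log2 fold change of −0.57 (SE 0.06, adjusted p = 0.0011), and 3 of its 4 probe sets were called lower. Whether this step differed from the others was not tested. Of the 4 ATG4 protease genes, which trim ATG8 proteins, 1 rose and 1 fell in limma, 25% and 25%, beside 15.6% and 13.6% of all genes. ATG4A was at 0.39 (adjusted p = 0.0094), ATG4C at −0.30 (adjusted p = 0.033) and 2 did not pass. ATG4C was not called without PD0332991 replicate 1, 2 or 3 or vehicle replicate 1 or 2 (adjusted p 0.0571 to 0.106), with quantile normalization, median centring or the replicate number as a block. The 3 ATG8 genes outside the 10, MAP1LC3A, MAP1LC3B2 and MAP1LC3C, were dim and did not pass, at −0.03, 0.07 and 0.19.

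Among 15 cargo receptor genes, 6 rose and 3 fell, 40% and 20%, beside 15.6% and 13.6% of all genes. The decreases of the mitophagy receptor genes BNIP3L and BNIP3 were the largest changes of all 68 genes. BNIP3L read 1535, 1368 and 1241 with PD0332991, against 3171, 3121 and 3473 with vehicle, less than any vehicle array by a wide margin (log2 fold change −1.23, SE 0.09, limma adjusted p = 3.0e-04). BNIP3 read 456, 443 and 516 with PD0332991, against 1072, 1200 and 1060 with vehicle (log2 fold change −1.21, adjusted p = 2.3e-04). TOLLIP, a ubiquitin-binding adaptor gene, was higher by 0.59 (adjusted p = 0.0018) on the probe set used, at 0.26 (0.0511) when its probe sets were averaged and at −0.079 (0.466) once those ending in _x_at or _s_at were dropped. BCL2L13, another mitochondrial receptor gene, was at 0.54 (adjusted p = 0.0012) and at 0.064 (0.651) when its 5 probe sets were averaged.

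Of 12 genes of fusion with the lysosome, 7 rose and 1 fell, 58.3% and 8.33%, beside 15.6% and 13.6% of all genes. PLEKHM1, an adaptor that links ATG8 proteins and RAB7 to the tethering complex HOPS, read 1301, 1289 and 1261 with PD0332991, against 593, 647 and 760 with vehicle. The groups were far apart. The log2 fold change was 0.94 (SE 0.10, limma adjusted p = 9.5e-04), and 0.51 when its probe sets were averaged. TECPR1, a tether that binds ATG5 with ATG12, rose by 0.64 (adjusted p = 3.0e-04) and VPS39, a HOPS subunit gene, by 0.56 (adjusted p = 0.0051). SNAP29, a SNARE gene, was at −0.47 (adjusted p = 0.0012), at −0.073 (0.534) when its probe sets were averaged and at 0.21 (0.245) once those ending in _x_at or _s_at were dropped.

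**Figure D3:**
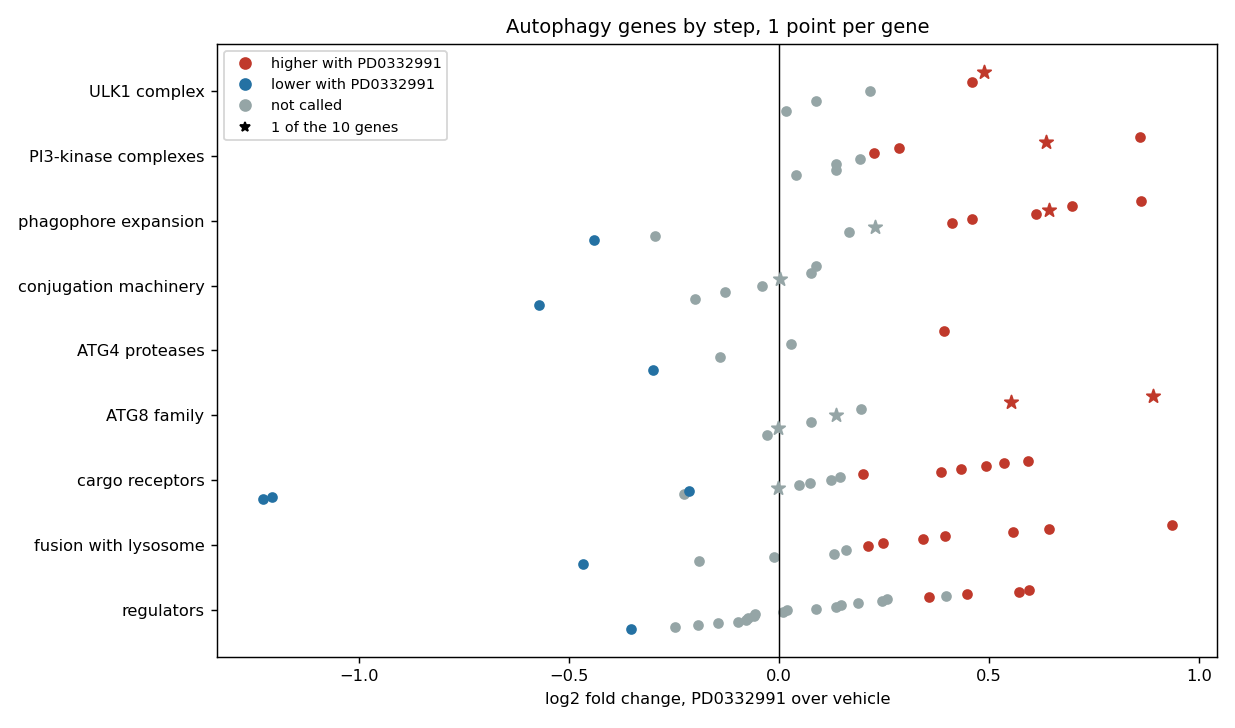
Log2 fold change of PD0332991 over vehicle for 68 autophagy genes in 8 steps and, in the lowest row, 22 regulators; 1 point per gene, coloured by limma call, with stars for the 10 genes. Calls to the right prevail in phagophore expansion (6 of 10) and fusion (7 of 12), the conjugation machinery has 0 of 7 called to the right, and BNIP3L and BNIP3 lie furthest left. Of all genes, 15.6% were called higher and 13.6% lower.

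Of 22 genes that regulate autophagy through transcription or through mTORC1 and AMPK, 4 rose and 1 fell, 18.2% and 4.55%, beside 15.6% and 13.6% of all genes, so that the share that rose is near that of all genes. TFE3, a transcription factor of lysosome and autophagy genes, read 847, 822 and 821 with PD0332991, against 479, 516 and 649 with vehicle. The arrays did not overlap, although the vehicle arrays were widely spread (log2 fold change 0.60, SE 0.12, limma adjusted p = 0.011), while averaging its probe sets gave 0.27 (0.0759). Its relative TFEB, named after its values were seen, was at −0.25 (adjusted p = 0.167), with overlapping groups. In the fit of all probe sets, 1 of the 2 TFEB probe sets was called lower. TSC1, which restrains mTORC1, rose by 0.57 (adjusted p = 9.8e-04), and RHEB, the GTPase that activates mTORC1, fell by 0.35 on the log2 scale (adjusted p = 0.0058; 5 of its 9 probe sets were called lower). MTOR itself was at 0.45 (adjusted p = 0.0031), and at 0.16 (0.400) when its 2 probe sets were averaged. ZKSCAN3, a repressor of autophagy genes, was at 0.36 (adjusted p = 0.0204), at 0.013 (0.940) when its probe sets were averaged, and not called without PD0332991 replicate 2 or 3 or vehicle replicate 1 or 2 (0.0594 to 0.0746). FOXO1 at −0.10 and FOXO3 at −0.06, named after their values were seen, did not pass.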

How the data were processed

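According to the labels, the extracted material was total RNA, the label was biotin and the arrays were from Affymetrix. Each deposited value is the intensity of 1 probe set, linear and between 0.56 and 16361.54. The way the authors summarised and scaled these intensities was not given in the sources used here. No detection calls were used. Values were taken as log2(intensity + 16), which understates the change of dim genes. After leaving out 62 control probe sets, 54613 were tested. The platform annotation gave 41091 of them 1 symbol, 1801 several and 11721 none, and symbols were updated by gene ID through NCBI RefSeq of GRCh38.p14, with 54 unmatched. The probe set with the highest mean intensity over the 6 arrays stood for each of 19775 genes, while a separate fit took all probe sets.

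PD0332991 and vehicle arrays were set against each other by limma 3.58.1 under R 4.3.3 (lmFit, then eBayes; 4 residual degrees of freedom, two-sided), with Benjamini-Hochberg adjustment over all genes or all probe sets and a threshold of 0.05. The code was tested on simulated data. The members, lists and tests were chosen with earlier results of these data known. Named genes are the 10 members, up to 4 per list with the largest changes among those called, up to 2 called against the direction of most, and the 3 most correlated with each of GABARAPL1, WIPI1 and SQSTM1. Alternatives were quantile normalization, median and 75th percentile centring, pseudocounts of 1 and 64, leaving out each array, a block for the replicate number, brighter genes only, robust eBayes, eBayes with a trend, array weights, an adjusted p of 0.01, averaged probe sets, and dropping probe sets whose names end in _x_at or _s_at, since these may hybridise to more than 1 transcript. Figures were drawn with matplotlib 3.10.9.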

Additional observations from a re-analysis of the deposited data

How the results depend on the processing

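GABARAPL1, MAP1LC3B, WIPI1 and ULK1 were called higher under each alternative in which they were measured, 18 for GABARAPL1 and MAP1LC3B and 19 for WIPI1 and ULK1, with log2 fold changes of 0.69 to 0.96, 0.50 to 0.60, 0.56 to 0.72 and 0.42 to 0.51. BECN1 was called under 18 of 19. Once probe sets whose names end in _x_at or _s_at were dropped, 6 of the 10 genes could be measured, and GABARAPL1 and MAP1LC3B had no probe set left. The 3 called higher there were WIPI1, ULK1 and WIPI2, of which WIPI2 was not called in the main fit. In the same setting TOLLIP stood at −0.079 and SNAP29 at 0.21, opposite in sign to the values in the text. The count of the 25 probe sets called lower was 0 with the replicate number as a block, 1 with a trend in eBayes, 0 at an adjusted p of 0.01, and between 0 and 2 with 1 array left out. Same-numbered arrays of the groups deviated together with correlations of 0.0033, 0.0758 and 0.0826. Each PD0332991 array correlated best with the vehicle array of its own number. Vehicle replicate 1 alone correlated better with another number, PD0332991 replicate 2 (0.0224). These correlations are small, and the numbers are not taken to pair the arrays. With the replicate block, 5 of the 10 genes were called higher. Of the 68 autophagy genes, 23 were then called higher and 5 lower, against 28 and 7 in the main fit. Over the 34 genes named by rule or as members, 597 of 640 values under 19 alternatives stayed on their side of the threshold, 580 of them with the same sign. The other 17 were values of GABARAP, SQSTM1 and ATG5, whose log2 fold changes near zero changed sign without a call. Of the rest, 37 lost and 4 gained a call in the same direction, and 2, those of TOLLIP and SNAP29, were calls that changed sign. The cause of these shifts was not tested. The number of arrays limits the precision. Low intensities cannot be told from background: 25.5% of all values lay below 16.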
